A study of Mus musculus with 10 samples.

Results

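The proneural and NeuroD factors are basic helix-loop-helix (bHLH) transcription factors, and 8 of them were followed here in ribosome footprints of the developing mouse neocortex. They are Neurog1, Neurog2, Neurod1, Neurod2, Neurod4, Neurod6, Nhlh1 and Nhlh2, chosen by name from the 22373 genes counted, and all 8 passed the filter on low counts. Ribo-seq sequences the stretches of mRNA that ribosomes protect from nuclease, and it was applied to wild-type CD-1 neocortex at embryonic stages E12.5, E14, E15.5 and E17 and at birth (P0), with 2 libraries per stage and 10 in all. No group was treated with a drug or carried an altered allele, and the tissue of every library was digested with RNase T1 and RNase A. Each library was a pool of brains from both sexes, so a replicate is a pool and the p-values measure the spread between pools.

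Neurog1 and Neurog2 are proneural factors. They are made in cortical progenitors, where they push cells out of the cycle and toward the excitatory neuron fate. Neurod4, Neurod1, Nhlh1 and Nhlh2 are switched on in differentiating progenitors and newborn neurons, and Neurod2 and Neurod6 stay on in postmitotic excitatory neurons. All of them pair with E proteins and bind short DNA motifs called E-boxes. Id proteins block that pairing, and Hes and Hey proteins repress proneural genes downstream of Notch.

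Counts per library ranged from 7544404 to 36129988, and the shallowest library was P0 replicate 1. The 9 neocortex markers were all above 0 in all 10 libraries, with a summed level of 486 to 806 CPM, the count scaled to library size. The P0 replicates stood farther apart than those of any other stage. Over 4559 well-covered genes, the log2 ratio of one replicate to the other had an SD of 0.54 in the P0 pair and of 0.13 to 0.22 in the embryonic pairs. Where 1 of the P0 libraries decided a member's call or direction at the last step, the value without it is given. Tissue markers other than neocortex also moved with stage and are given after the members.

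E-boxes upstream of the members are shown first, since these genes both encode E-box binding factors and may carry the motif themselves. RefSeq promoter sequences matched all 8 members, with 9 windows of 250 bases before a start site because Neurod4 has 2 that overlap. The E-box CANNTG, searched on both strands, occurred in 5 of the 9 windows and in 66.2% of 32851 windows of all genes. Among its forms, CAGATG occurred in 3 of 9 member windows and 14.4% of all windows. The form CATATG occurred in 2 of 9 and 3.46%, and the form CAGCTG in 0 of 9 and 13%. All 3 forms are also counted under the general motif. The windows of Neurog1, Neurog2 and Neurod4 held no CANNTG.

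The upstream windows of the 2 members called higher and of the Nhlh gene that fell most are printed below 5′ to 3′ on the gene's strand, with E-boxes in capitals. Build GRCm38.p6 was used and all of them lie on the minus strand, at chr11:98329646-98329895 for Neurod2, chr6:55681264-55681513 for Neurod6 and chr1:172057597-172057846 for Nhlh1.
Neurod2: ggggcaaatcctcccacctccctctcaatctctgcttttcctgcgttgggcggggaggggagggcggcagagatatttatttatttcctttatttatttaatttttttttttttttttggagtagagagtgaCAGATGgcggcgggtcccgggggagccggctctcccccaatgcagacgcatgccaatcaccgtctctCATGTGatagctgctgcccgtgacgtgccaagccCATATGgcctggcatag
Neurod6: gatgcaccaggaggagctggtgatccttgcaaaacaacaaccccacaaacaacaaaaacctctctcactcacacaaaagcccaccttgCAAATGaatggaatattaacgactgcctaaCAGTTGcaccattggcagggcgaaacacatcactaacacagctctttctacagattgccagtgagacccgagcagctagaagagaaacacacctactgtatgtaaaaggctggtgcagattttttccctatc
Nhlh1: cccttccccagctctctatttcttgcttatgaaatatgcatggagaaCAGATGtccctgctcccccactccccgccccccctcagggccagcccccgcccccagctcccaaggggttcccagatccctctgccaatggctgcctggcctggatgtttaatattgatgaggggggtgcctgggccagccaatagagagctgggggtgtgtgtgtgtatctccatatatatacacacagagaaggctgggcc

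The Neurod2 window held 3 E-boxes. Those of Neurod6, which rose, and Nhlh2, which fell, held 2 each, and those of Neurod1 and Nhlh1 held 1 each. The form CAGATG, the first of those in Neurod2, was also present upstream of both Nhlh1 and Nhlh2, and CATATG upstream of Neurod1. The bases around CAGATG in Nhlh2 (plus strand, chr3:102010006-102010035) and CATATG in Neurod1 (minus strand, chr2:79456861-79456886) were as follows.
Nhlh2: cccacactgtgaCAGATGtcaagtccaatt
Neurod1: gggaagacCATATGgcgcatgccggg
A match in these letters is a description of the window. Binding was not measured.

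Over the whole span from E12.5 to P0, footprints on all 8 genes changed, in both directions. Neurod2 and Neurod6 rose, and Neurog1, Neurog2, Neurod1, Neurod4, Nhlh1 and Nhlh2 fell. Calls required a limma-voom adjusted p under 0.05 and an absolute log2 fold change of 0.32 or more. Of the 13484 genes tested, 30.1% were called higher and 32% lower in this comparison. The median log2 fold change of the 8 members was -2.85, and that of all genes tested was -0.01. A moderated F test across the 5 stages called 8 of 8 members, against 63.8% of all genes. In tissue counted as a whole, fewer cells of a type and fewer footprints per cell cannot be told apart, and a footprint count joins the amount of an mRNA with its ribosome load.

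**Figure D1:**
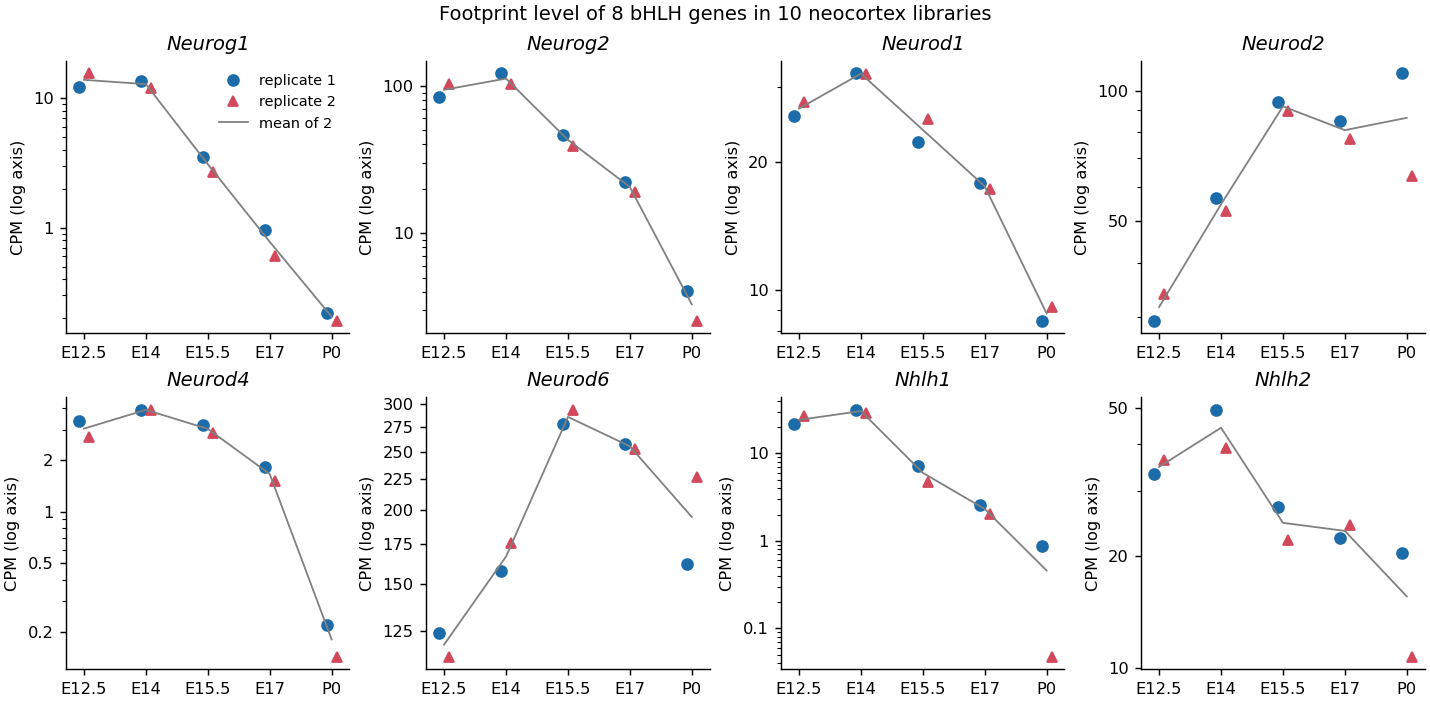
Footprint level in CPM (log axis) of each member against stage, with 1 symbol per replicate library and a line through the mean of 2. Neurod2 and Neurod6 end above their E12.5 level and the other 6 genes end below it, with the replicates far apart at P0 for Nhlh1.

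Neurog2, which drives cortical progenitors toward the glutamatergic fate, had 84.4 and 104 CPM at E12.5 and 121 and 103 CPM at E14. It then stood at 46.7 and 39.3 CPM at E15.5, 22.2 and 18.9 CPM at E17, and 4.02 and 2.55 CPM at P0. The libraries of E12.5 and E14 overlapped, and from E14 on every stage lay below the one before it. The step from E14 to E15.5 was a log2 fold change of -1.38 ± 0.17 (SE, adjusted p = 0.000624), that to E17 was -1.06 ± 0.18 (adjusted p = 0.0154) and that to P0 was -2.83 ± 0.24 (adjusted p = 0.000881). From E12.5 to P0, Neurog2 was 32.3-fold lower.

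Neurog1, its close relative, had 12.3 and 15.6 CPM at E12.5, 13.8 and 12.04 CPM at E14, and 3.50 and 2.702 CPM at E15.5. At E17 it had 0.953 and 0.601 CPM, and at P0 2 and 8 counts, or 0.218 and 0.191 CPM. The E12.5 and E14 libraries overlapped, and the later stages did not overlap with each other or with those. Its fall from E14 to E15.5 was 4.11-fold (log2 fold change -2.04 ± 0.19, adjusted p = 0.000201) and its fall to E17 was 3.96-fold (adjusted p = 0.0123). The step from E17 to P0 missed the threshold (log2 fold change -1.88 ± 0.60, adjusted p = 0.0605), and summed counts gave a ratio of 4.04 with an exact interval for counting error of 2.01 to 8.99. edgeR's quasi-likelihood test called this step lower (adjusted p = 0.0143).

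Neurod4, a factor of differentiating progenitors, was thinly covered, with 2 to 123 counts per library. Its level was 3.36 and 2.73 CPM at E12.5, 3.93 and 3.90 CPM at E14, and 3.19 and 2.87 CPM at E15.5. It then had 1.81 and 1.502 CPM at E17, and 2 and 6 counts at P0. E15.5 lay inside the range of E12.5, and E17 and P0 each lay below all earlier stages. The falls to E17 (log2 fold change -0.87 ± 0.18, adjusted p = 0.0242) and from E17 to P0 (-3.27 ± 0.44, adjusted p = 0.00298) were called. The summed counts of E17 and P0 gave a 10.7-fold ratio, with a counting interval of 5.20 to 25.4. Without P0 replicate 2 the fitted step was -2.63 (adjusted p = 0.0571). The step from E14 to E15.5 was not called (-0.36 ± 0.15, adjusted p = 0.104).

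Neurod1, made as cells leave the cycle and in young neurons, changed least of the 6 genes that fell, apart from Nhlh2. It had 25.6 and 27.6 CPM at E12.5 and 32.2 and 32.1 CPM at E14. E15.5 held 22.3 and 25.2 CPM, E17 held 17.8 and 17.2 CPM, and P0 held 8.48 and 9.14 CPM. The highest stage was E14 and its libraries stood above all others. The step from E14 to E15.5 was called (log2 fold change -0.44 ± 0.10, adjusted p = 0.0102), as were those to E17 (-0.43 ± 0.10, adjusted p = 0.0384) and to P0 (-0.97 ± 0.11, adjusted p = 0.00203). E15.5 against E12.5 did not pass (-0.17 ± 0.10, adjusted p = 0.205).

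Nhlh1 and Nhlh2 are factors of newborn neurons, and their footprints ended at different levels relative to their start. Nhlh1 had 21.8 and 26.4 CPM at E12.5, 31.7 and 29.2 CPM at E14, 7.26 and 4.73 CPM at E15.5, and 2.60 and 2.03 CPM at E17. At P0 it had 8 counts in replicate 1 and 2 counts in the deeper replicate 2, or 0.870 and 0.0477 CPM. Each stage from E15.5 on lay below all earlier ones. The fall from E14 to E15.5 was 5.10-fold (log2 fold change -2.35 ± 0.26, adjusted p = 0.000375), and the fall to E17 was 2.56-fold (adjusted p = 0.0394). The step to P0 had a log2 fold change of -4.54 ± 0.86 (adjusted p = 0.00962). Without P0 replicate 2 it was -1.34 (adjusted p = 0.281). Leaving out E17 replicate 1 gave -4.35 (adjusted p = 0.0518). DESeq2 gave -2.56 and did not call the step (adjusted p = 0.0573). Summed counts of E17 and P0 gave a ratio of 11.96 with a counting interval of 6.31 to 25.5.

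Nhlh2 had 33.3 and 36.3 CPM at E12.5, 49.6 and 39.0 CPM at E14, and 27.1 and 22.0 CPM at E15.5. It kept 22.5 and 24.3 CPM at E17, and the P0 libraries held 20.4 and 10.7 CPM. E15.5 and E17 overlapped. The fall from E14 to E15.5 was 1.79-fold (log2 fold change -0.84 ± 0.25, adjusted p = 0.0284). E17 against E15.5 gave -0.07 ± 0.25, with a 95% interval of -0.64 to 0.50, and P0 against E17 gave -0.76 ± 0.26 (adjusted p = 0.0772). Leaving out P0 replicate 1 gave -1.12 for that step, which was called (adjusted p = 0.00369). From E12.5 to P0, Nhlh2 was 2.52-fold lower (adjusted p = 0.00242).

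Neurod2 and Neurod6, the factors of postmitotic excitatory neurons, rose to E15.5. Neurod6 had 124 and 113 CPM at E12.5, 158 and 176 CPM at E14, and 278 and 294 CPM at E15.5. It had 258 and 253 CPM at E17 and 162 and 227 CPM at P0. Both libraries of E14 lay above those of E12.5 and both of E15.5 above those of E14, and the P0 libraries lay below both E17 libraries. The step from E14 to E15.5 was 1.71-fold higher (log2 fold change 0.78 ± 0.15, adjusted p = 0.00492), and P0 was 1.63-fold above E12.5 (0.70 ± 0.15, adjusted p = 0.00412). The step from E17 to P0 was -0.40 ± 0.15 (adjusted p = 0.0965), and leaving out P0 replicate 2 gave -0.66, which was called (adjusted p = 0.00306).

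Neurod2 had 29.4 and 33.8 CPM at E12.5, 56.5 and 52.7 CPM at E14, 94.1 and 89.7 CPM at E15.5 and 84.8 and 77.2 CPM at E17. At P0 the libraries were at 110 and 63.4 CPM, on either side of E15.5 and E17. E15.5 was 1.69-fold above E14 (log2 fold change 0.75 ± 0.22, adjusted p = 0.0266), and P0 was 2.58-fold above E12.5 (1.37 ± 0.23, adjusted p = 0.000898). P0 against E17 gave 0.01 ± 0.22 (95% interval -0.49 to 0.51). This step was -0.35 without P0 replicate 1 (adjusted p = 0.036) and 0.44 without P0 replicate 2 (adjusted p = 0.0213), so its direction rested on which P0 library was used.

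Taken by step, the members moved most often between E14 and E15.5. From E12.5 to E14, 0 of 8 were called by limma-voom, although 4 had an unadjusted p under 0.05. In that fit all stages, P0 included, share 1 estimate of each gene's spread. The largest log2 fold changes were those of Neurod2 (0.79 ± 0.23, adjusted p = 0.141) and Neurod6 (0.49 ± 0.15, adjusted p = 0.166). For both genes the E12.5 and E14 libraries did not overlap. Of the 8 log2 fold changes, 1 was below 0, that of Neurog1. edgeR also called 0, and DESeq2 called 1, Neurod2. In all genes 0.497% were called higher and 0.141% lower at this step. Leaving out P0 replicate 1, P0 replicate 2 or both gave 2 calls, Neurod2 and Neurod6. From E14 to E15.5, Neurod2 and Neurod6 rose and Neurog1, Neurog2, Neurod1, Nhlh1 and Nhlh2 fell, which is 2 higher and 5 lower where 16.5% and 19.6% of all genes were called higher and lower. Neurog1, Neurog2, Neurod6 and Nhlh1 kept their call when any single E14 or E15.5 library was left out. Neurod2 (log2 fold change 0.70 to 0.80) and Nhlh2 (-1.02 to -0.67) lost theirs in each of these fits. Neurod1 lost its call without E14 replicate 2 (-0.44) or without E15.5 replicate 1 (-0.35).

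From E15.5 to E17, 0 members rose and 5 fell, against 5.61% and 3.43% of all genes. These were Neurog1, Neurog2, Neurod1, Neurod4 and Nhlh1. None of the 5 was called when E15.5 replicate 1, E15.5 replicate 2, E17 replicate 1 or E17 replicate 2 was left out, although each kept its direction and 5 members had an unadjusted p under 0.05. Leaving out either E12.5 library or either E14 library gave 3 calls. From E17 to P0, 0 rose and 4 fell (Neurog2, Neurod1, Neurod4 and Nhlh1), against 9.46% and 11.1% of all genes. Without P0 replicate 1 the calls at this last step were 6. Without P0 replicate 2 they were 1 higher (Neurod2) and 3 lower (Neurog2, Neurod1 and Neurod6), with Neurod4 and Nhlh1 no longer called. A fit of E17 and P0 alone gave 0. With library size set by total counts, Neurod1 and Nhlh2 were not called from E14 to E15.5, nor Neurod1 from E15.5 to E17.

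**Figure D2:**
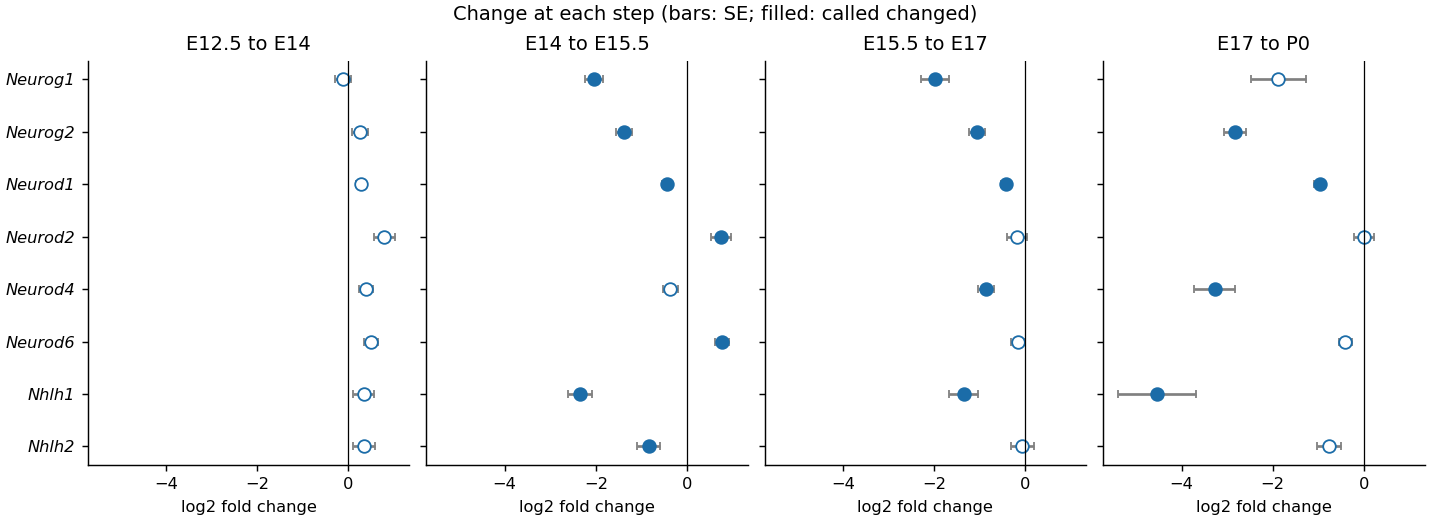
log2 fold change of each member at the 4 steps between adjacent stages, with bars for the SE and filled points for genes called changed. No point is filled from E12.5 to E14, and Neurod2 and Neurod6 are the filled points right of 0, from E14 to E15.5.

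Measured from E12.5, 2 members rose and 3 fell by E15.5, where 22.2% and 24.0% of all genes were called higher and lower. By E17 2 rose and 5 fell, where 26.9% and 27.8% of all genes were called. With library size set by total counts, 2 rose and 3 fell by E17, since Neurod1 (-0.19, adjusted p = 0.127) and Neurod4 (-0.42, adjusted p = 0.0882) were not called. Nhlh2 was the member not called by E17 in the reported fit (log2 fold change -0.57 ± 0.25, adjusted p = 0.0816). These comparisons share the E12.5 libraries.

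Ratios of 2 genes within a library do not depend on how libraries are scaled. Relative to the E12.5 mean, the ratio of Neurod6 to Neurog2 counts was 1.01 and 1.34 at E14 and 4.63 and 5.83 at E15.5. It reached 9.03 and 10.4 at E17 and 31.3 and 69.2 at P0. The ratio of Neurod2 to Neurog2 was 5.97 and 6.77 at E15.5, 11.3 and 12.1 at E17, and 80.6 and 73.6 at P0. From E12.5 through E14 both ratios stayed between 0.853 and 1.52, and from E14 on no stage overlapped with the one before it.

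Within the proneural pair, Neurog1 relative to Neurog2 went from 0.767 and 0.792 of its E12.5 value at E14 to 0.505 and 0.465 in the E15.5 libraries and to 0.289 and 0.214 at E17. These embryonic stages did not overlap. At P0, where Neurog1 had 2 and 8 counts, the ratio was 0.365 and 0.505, above both E17 values. Within the Nhlh pair, Nhlh1 relative to Nhlh2 was 0.923 and 1.08 at E14, then 0.387 and 0.310 in the E15.5 pair and 0.168 and 0.120 in the E17 pair. Neurod2 relative to Neurod6 ranged from 1.12 to 1.34 between E14 and E17, and at P0 it was 2.53 in replicate 1 and 1.05 in replicate 2. These ratios carry no test.

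**Figure D3:**
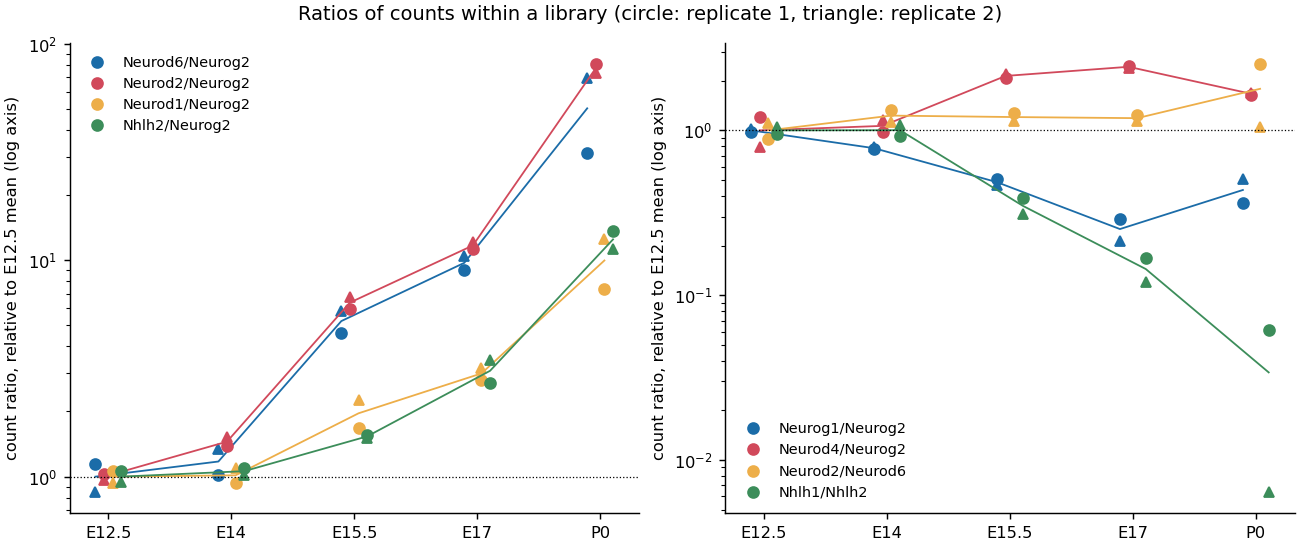
Ratio of counts of 2 members in the same library, divided by its mean at E12.5 (log axis), against stage, with circles for replicate 1, triangles for replicate 2 and lines for means. Neurod6/Neurog2 and Neurod2/Neurog2 reach 31.3 or more at P0, and Nhlh1/Nhlh2 is at 0.168 and 0.120 at E17.

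The genes that partner, block or follow these factors were read from lists of known members. Of the E proteins, the dimer partners, 0 of 3 rose and 2 fell from E12.5 to P0. Tcf3 fell with a log2 fold change of -2.19 ± 0.22 (adjusted p = 4.88e-05) and Tcf12 with -1.80 ± 0.13. Tcf4 was not called, at 0.19 ± 0.13 (adjusted p = 0.233).

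Of 9 Id, Hes and Hey genes, 2 rose and 6 fell from E12.5 to P0. Id2, made in postmitotic neurons as well as progenitors, went from 90.9 and 96.9 CPM at E12.5 to 512 and 412 CPM at P0 (log2 fold change 2.29 ± 0.13). Id4 went from 209 and 255 CPM to 31.4 and 17.9 CPM (-3.35 ± 0.26). Hes1, a Notch effector of progenitors, was called lower at -2.64 ± 0.18, as was Hes5, another, at -1.49 ± 0.25. From E14 to E15.5, 1 of the 9 rose and 7 fell, against 16.5% and 19.6% of all genes. Both libraries of E15.5 had Id2 above all E14 values while Id4 lay below.

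Of 10 target genes of proneural factors, 0 rose and 9 fell from E12.5 to P0, and their median log2 fold change was -3.23. Gadd45g, a stress and growth arrest gene, went from 64.3 and 77.6 CPM to 5.98 and 5.51 CPM (log2 fold change -3.64 ± 0.18). Eomes, a transcription factor of intermediate progenitors, went from 56.3 and 64.2 CPM to 7.61 and 4.73 CPM (-3.45 ± 0.20). Hes6 was the gene not called (-0.27 ± 0.23, adjusted p = 0.344). At the step from E14 to E15.5, 7 of the 10 fell and 0 rose, against 19.6% and 16.5% of all genes. Eomes changed by -0.60 ± 0.17 there (adjusted p = 0.0246), compared with -1.60 ± 0.15 for Gadd45g.

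Other neural bHLH genes were mostly too low to test, and 4 of 11 passed the filter. From E12.5 to P0, 3 of these 4 rose and 0 fell. Olig1 and Olig2, factors of oligodendrocyte precursors, had the largest changes. Olig1 rose from 0.275 and 0.187 CPM to 46.3 and 26.0 CPM (log2 fold change 7.12 ± 0.93), and Olig2 rose by 4.40 ± 0.62.

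**Figure D4:**
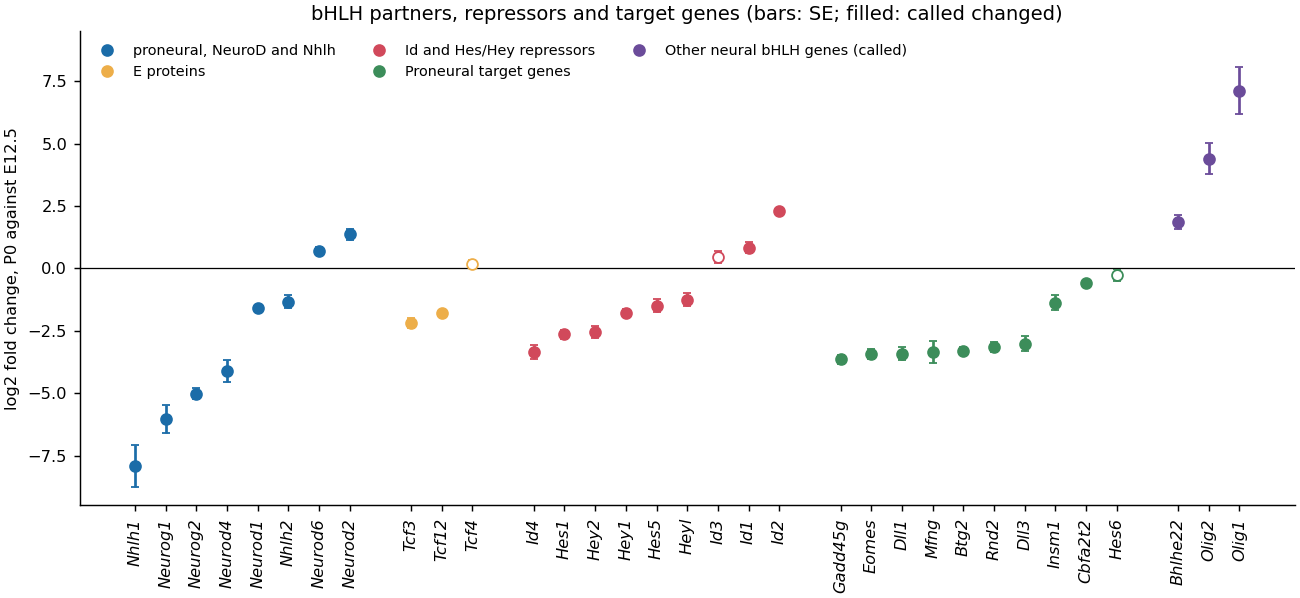
log2 fold change at P0 against E12.5 of the members, E proteins, Id and Hes/Hey repressors, proneural target genes and the 3 other neural bHLH genes called changed, with bars for the SE and filled points for genes called changed. Of the target genes all but Hes6 are filled and below 0, and Olig1 has the highest value at 7.12.

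Markers of other tissue changed over the same steps. Of all genes tested, 16.5% were called higher and 19.6% lower from E14 to E15.5. From E14 to E15.5 the summed level of 7 choroid plexus genes went from 1156 and 1162 CPM to 13.8 and 11.4 CPM, and all 6 of those tested fell. The 6 meningeal fibroblast genes went from 62.9 and 71.3 CPM to 2.89 and 2.53 CPM, with 6 of 6 lower. The 6 diencephalon genes went from 90.3 and 94.8 CPM to 27.4 and 24.3 CPM, with all 3 tested lower. At most 1 choroid plexus, 2 diencephalon and 0 meningeal markers were at 0 in an E15.5 library. Otx2 belongs to both the choroid plexus and the diencephalon list. Their part in the members' changes was not tested. Of the 9 neocortex markers, 1 rose and 4 fell from E12.5 to P0.

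Cajal-Retzius cells are an early-born neuron type of the cortical surface. Their 6 markers summed to 39.1 to 48.1 CPM over all libraries, with none at 0. From E14 to E15.5, 3 of the 6 fell and 0 rose, against 19.6% and 16.5% of all genes. From E12.5 to P0, 4 of the 6 were called lower and 1 higher, so the steady sum joins opposite changes. The 10 markers of the ganglionic eminence and interneurons rose from 57.5 and 69.3 CPM at E14 to 147 and 153 CPM at E15.5. Of these, 6 of 10 were called higher, against 16.5% of all genes, and 0 were at 0 in those libraries. The 8 red blood cell markers were at 6905 and 7420 CPM at E15.5 and at 7253 and 7259 CPM at E17. At P0 they were at 1438 and 1861 CPM. From E17 to P0, 5 of the 8 were called lower and 1 higher, against 11.1% and 9.46% of all genes. From E14 to E15.5, 5 were called lower and 0 higher, against 19.6% and 16.5%. The part of these shifts in the members' values was not tested.

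**Figure D5:**
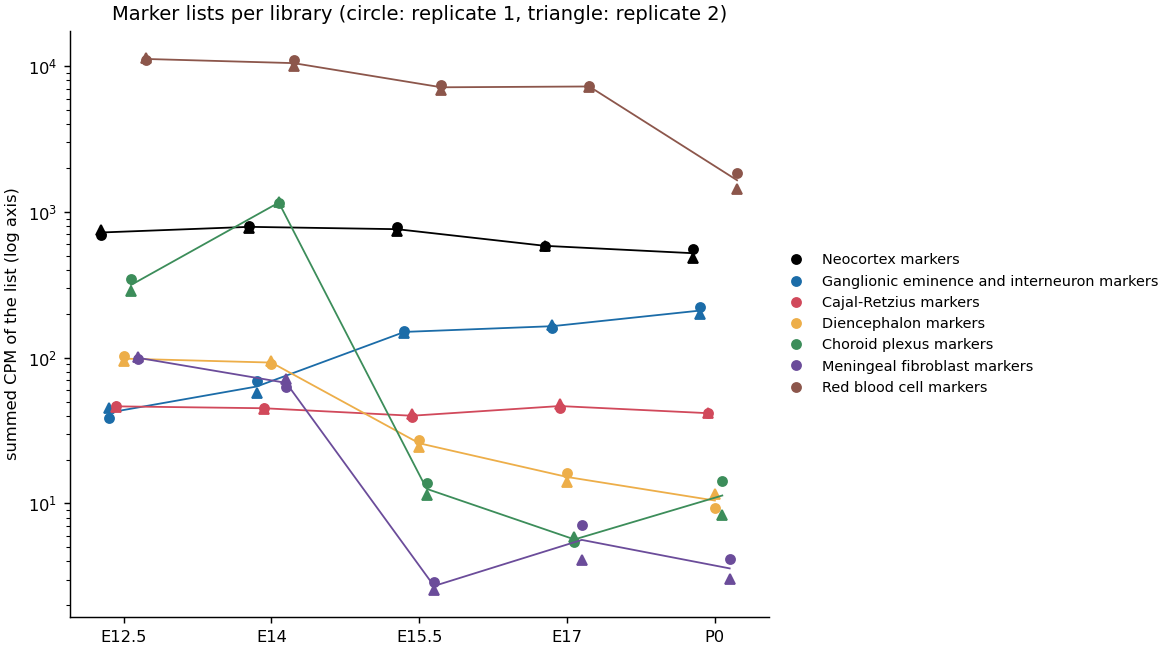
Summed CPM (log axis) of each marker list against stage, with circles for replicate 1, triangles for replicate 2 and lines for means. The choroid plexus and meningeal lists drop between E14 and E15.5, and the neocortex list stays between 486 and 806 CPM.

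The genes most like each member in level over the 10 libraries were taken from 9215 genes (mean count of 100 or more), by Pearson's r of log2 CPM, as a description. The libraries share stages, so r is high for any gene with a like order of stages. For Neurog2 they were Tfap2c (r = 0.992), Rcor2 and Eomes, and for Neurog1 they were Msi1 (r = 0.997), Pax6 and Gm10093. For Neurod4 they were Phf21b (r = 0.987), Eomes and Ankrd13a. Neurod1 was most like Ppfia1 (r = 0.993), Cpsf4 and Trp53inp1. Nhlh1 was most like Tead2 (r = 0.991), Nudt14 and Cdk4, and Nhlh2 was most like Plekhj1 (r = 0.981), Bcl10 and Nudt14. Neurod2 was most like Bhlhe22 (r = 0.984), which encodes a bHLH factor of cortical neurons, then Ulk1 and Hdac5, and Neurod6 was most like Aff4 (r = 0.988), Mkrn1 and Sh3kbp1.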

How the data were processed

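The authors deposited a table of raw footprint counts, 1 row per gene, made from Ribo-seq reads aligned with STAR (2.7.0 in the submitters' processing notes) after duplicate removal, without cycloheximide. The annotation named in the study's methods is GENCODE; no build is named in the table, and RefSeq GRCm38.p6 was used only for promoter sequences. Of 22373 identifiers, 22274 matched a symbol. The filter kept 13484 genes, those whose 2 libraries of any stage together held 32 footprints or more. Counts were fitted with limma-voom (limma 3.58.1, edgeR 4.0.16 for TMM factors and the quasi-likelihood test, DESeq2 1.42.0 as an alternative, R 4.3.3) over all 10 libraries with 1 coefficient per stage, as two-sided tests adjusted by Benjamini-Hochberg over all genes kept. Calls required an adjusted p under 0.05 and an absolute log2 fold change of 0.32 or more. The 7 comparisons were the 4 steps between neighbouring stages and the changes since E12.5 by E15.5, by E17 and by P0. CPM uses TMM-scaled library sizes. Coding lengths were not used here, so levels were compared within a gene only. Intervals on sums of counts cover counting error only. The code was tested on simulated data. One gene that the naming rule includes is not reported here. Members and lists were chosen with earlier results of these data known. The genes named outside the members are, in each list of bHLH partners, repressors, targets and relatives, the 2 with the largest absolute change from E12.5 to P0 among those called, plus Eomes, Hes5 and Hes1, and the 3 genes most like each member. Tcf4, Hes6 and Id2 were named after their values were seen. Alternatives were edgeR, DESeq2, other scaling, other filters, sample quality weights, a replicate block, a 2-stage fit, leaving out each library and, chosen after seeing the data, leaving out both P0 libraries.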

Additional observations from a re-analysis of the deposited data

How the results depend on the processing

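Of the 1160 refitted log2 fold changes of members, 1063 kept both direction and side of the threshold. With the direction kept, 61 lost and 26 gained a call. The other 10 changed sign and were counted only as such, whether or not their call changed. The calls of members over E12.5 to P0 and of the F test remained 8 under every alternative that gave a value. Members called from E12.5 to E14 were 0 in the reported fit, 1 with DESeq2, and 2 with sample quality weights or without both P0 libraries, the last chosen after seeing the data. From E15.5 to E17 the 5 calls became 3 with DESeq2, with no filter on low counts and with the replicate block, and from E17 to P0 the 4 calls became 2 under quality weights per sample and 0 when the model held those 2 stages alone, where 5 had an unadjusted p under 0.05. Leaving out each library in turn gave 0 to 2 calls from E12.5 to E14, 4 to 7 from E14 to E15.5, 0 to 5 from E15.5 to E17, 3 to 6 from E17 to P0, 5 to 6 from E12.5 to E15.5, 7 to 8 from E12.5 to E17 and 8 to 8 from E12.5 to P0 and across stages.

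Among single members, Neurod4 from E12.5 to E15.5 (reported log2 fold change 0.02) turned to -0.022 with DESeq2 and -0.0011 with RLE factors, and ranged from -0.14 to 0.16 (-0.06 without E15.5 replicate 1) over the fits that left out 1 library. Neurod1 from E12.5 to E15.5 turned to 0.18 with total counts only. Neurod2 from E17 to P0 (reported 0.01) turned to -0.019 with no filter and -0.05 without E17 replicate 2, and ranged from -0.35 to 0.44 over the fits that left out 1 library. Neurog1 from E12.5 to E14 ranged from -0.28 to 0.066 over such fits, and Nhlh2 from E15.5 to E17 ranged from -0.22 to 0.084. The cause was not tested. At P0, Neurog1, Neurod4 and Nhlh1 rest on 10, 8 and 10 counts over both libraries, which limits their values there. With total counts only, the all-gene median log2 fold change was 0.29 at the step from E14 to E15.5 and 0.51 between E12.5 and P0, and Neurod1 and Nhlh2 lost their call from E14 to E15.5. Deviations of same-numbered libraries correlated between -0.63 and 0.43 across stages, in both signs. The reported fit did not pair libraries by replicate number, and whether some of them share a batch was not tested. The block changed calls of Neurod1 and Nhlh1 from E15.5 to E17 and no other member's call. Over all genes, calls from E12.5 to E14 were 86 in the reported fit, 388 with DESeq2, 143 with total counts, 27 with no filter, 655 with quality weights, 4 with the replicate block, 11 in the 2-stage fit and 1062 without both P0 libraries. From E15.5 to E17 they were 1219, and 773, 3717, 3267 and 2810 with no filter, quality weights, the 2-stage fit and without both P0 libraries. From E17 to P0 they were 2767, and 698 and 0 with quality weights and the 2-stage fit.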
